A study of Mus musculus with 6 samples.

Results

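Astrocytes, the star-shaped glia of the brain, were picked out of 6 single-nucleus libraries of the injured mouse cortex by the RNA they held. A barcode, which stands for 1 captured nucleus, was kept when it had at least 1000 unique molecular identifiers (UMIs, counts of single captured RNA molecules) and under 5% of them from mitochondrial genes. Members were chosen by detected genes: a nucleus was called an astrocyte when at least 4 of the 8 genes Aqp4, Gfap, Slc1a2, Slc1a3, Rfx4, Ntsr2, Aldh1l1 and Atp13a4 were detected and at most 1 of the 6 genes Ptprc, Csf1r, Col1a2, Mog, Pdgfra and Rbfox3, which mark immune cells, fibroblasts, oligodendrocytes, oligodendrocyte precursors and neurons. This gave 2352 nuclei of the 60729 barcodes that passed the UMI and mitochondrial limits, out of 67360 barcodes in all. Since these genes chose the nuclei, their own levels are given below as a description only.

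The libraries came from photothrombotic (PT) lesions of the cortex, in which light and a dye close the vessels, taken 7 days post injury (dpi) or, for the later stage, 21. Ctrl mice had the genotype WT with treatment NA, ADWA11 mice were WT and received ADWA11, an antibody against integrin αvβ8, and Tgfbr2-cKO mice had the genotype Col1a2(creER); Tgfbr2(flox) with treatment NA. The Cre of the Tgfbr2-cKO mice is made from the Col1a2 promoter and is switched on by tamoxifen, so that the TGFβ receptor is deleted in fibroblasts and the astrocytes of these mice are not the targeted cells. Each library held DAPI-sorted nuclei of dissected lesions from 2 pooled mice, 1 male and 1 female, and their ages, the control antibody and whether Ctrl mice had tamoxifen are not in the labels. Each of the 6 groups was 1 library, so no difference below has a replicate or a test. The intervals given are 95% exact intervals for the counting of nuclei or UMIs and say nothing of how far mice of a group differ. Where 3 values follow each other they are in the order Ctrl, ADWA11, Tgfbr2-cKO.

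Astrocytes take up glutamate and potassium from the space around synapses, carry water through end feet on blood vessels and supply neurons with glutamine and lipids. After injury they become reactive: they thicken their filaments of Gfap and vimentin, some of them divide, and they form a border between the lesion core with its fibroblasts and immune cells and the living tissue. TGFβ is stored in the matrix in a latent form, and integrin αvβ8, the target of ADWA11, is one of the receptors that release it. Astrocytes are known to carry this integrin.

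Astrocyte nuclei made up 1.48% (1.23 to 1.77, 117 of 7906) of the filtered nuclei in Ctrl at 7 dpi and 5.58% (5.17 to 6.0, 673 of 12069) at 21 dpi. In Tgfbr2-cKO they made up 3.38% (3.05 to 3.74, 367 of 10856) at 7 dpi and 11.8% (11.1 to 12.7, 749 of 6328) at 21 dpi. In ADWA11 the shares were 1.56% (1.33 to 1.81, 170 of 10914) and 2.18% (1.93 to 2.45, 276 of 12656). The share was thus highest in the Tgfbr2-cKO library at both times, and the ADWA11 library lay beside Ctrl at 7 dpi and below it at 21 dpi. With none of the 6 genes of other cells allowed, this order held at 21 dpi, but the shares were 1.06%, 0.585% and 7.46%. Between the times, male nuclei of ADWA11 went from 1.85% to 1.32%. The log2 ratio of the share to Ctrl in Tgfbr2-cKO was 1.19 (0.89 to 1.5) for the earlier pair of libraries and 1.09 (0.93 to 1.24) for the later one, and in ADWA11 0.074 and −1.35. Where nuclei could be assigned to the female or the male mouse of a pool, they gave within the Tgfbr2-cKO library at 21 dpi shares of 11.7% and 12.5%. In the ADWA11 library at 21 dpi the shares were 3.91% and 1.32%, both below the Ctrl values of 6.76% and 4.71% but far from each other. A share also moves with how much cortex and how many other cells were caught: neuronal RNA, defined below, was in 63.2% of all filtered nuclei of Tgfbr2-cKO at 7 dpi, in 19.9% at 21 dpi and in 1.45% to 4.20% of the other libraries. Its part in the shares was not tested, but with those nuclei left out of the total the Tgfbr2-cKO shares were 7.03% and 13.4%, and those of Ctrl 1.53% and 5.67%. Fibroblast nuclei, found by a like rule, were 2557 of 7906 filtered nuclei in Ctrl and 364 of 10856 in Tgfbr2-cKO at 7 dpi. At 21 dpi they were 6297 of 12069 and 678 of 6328, and in ADWA11 4342 of 12656. The share ratios thus also move with the fibroblasts in the total, and their part was not tested.

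**Figure D1:**
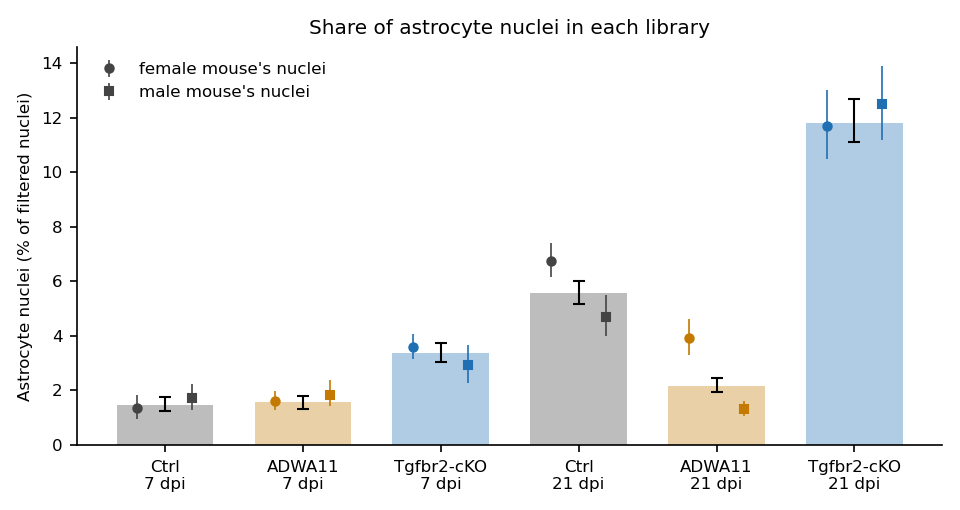
Astrocyte nuclei as a percentage of filtered nuclei in each of the 6 libraries, with bars for the library (black line, 95% exact interval for counting) and points for the nuclei of the female (circle) and male (square) mouse. The Tgfbr2-cKO library is highest at each time (3.38% and 11.8%), and the female and male points lie apart in ADWA11 at 21 dpi (3.91% and 1.32%).

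The rule has a threshold on each side. Of the astrocyte nuclei, 34, 40 and 45 from the earlier libraries and 117, 39 and 104 from the later ones had exactly 4 of the 8 genes, and 38, 64, 188, 140, 27 and 174 barcodes just outside it had 3 of them. A further 98, 119, 128, 417, 193 and 190 barcodes had enough astrocyte genes but also 2 or more genes of other cells and were not taken. The genes of the rule themselves had uneven levels, given as counts per 1000000 summed UMIs of a library's astrocyte nuclei, mitochondrial genes left out (CPM). Slc1a2, the main glutamate transporter, had 586, 571 and 4399 CPM at 7 dpi and 1654, 1089 and 4352 CPM at 21 dpi. Aqp4, the water channel of the end feet, went the other way, at 627, 725 and 269.9 CPM and then 867, 1046 and 523. Gfap lay between 560.4 CPM in Tgfbr2-cKO at 7 dpi and 862 in the same group at 21 dpi.

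The name of the cells was checked on a separate list of 30 astrocyte identity genes that the rule does not use, among them Gpc5, Slc4a4, Prex2, Glul and Slc7a10. The sum of the list was above that of all other filtered nuclei in each library, for example 4088 against 1489 CPM in Ctrl at 7 dpi and 10986 against 621 CPM in Tgfbr2-cKO at 7 dpi. Between 25 and 30 of the 30 genes were higher in astrocyte nuclei than in oligodendrocyte precursor nuclei of the same library, between 21 and 27 higher than in fibroblast nuclei and between 28 and 30 higher than in myeloid nuclei. Most genes of this list went with the label in all 6 libraries, least so in Ctrl and ADWA11 at 7 dpi. There Etnppl, an astrocyte enzyme of phospholipid breakdown, had 0 UMIs. In ADWA11 at 7 dpi 22 of the 30 genes were higher than in all other filtered nuclei. In Ctrl at 7 dpi the 8 precursor markers summed to 4541 CPM in astrocyte nuclei, above the 4088 CPM of the identity list. Tnr, Vcan and Lhfpl3, which precursors also hold, were in 98.3%, 86.3% and 83.8% of these nuclei, against 10.8%, 15.0% and 14.4% of myeloid nuclei. Astrocyte and precursor RNA thus stood together in most of these astrocyte nuclei.

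RNA of genes that mark other cells was found in some libraries and moves with the comparisons below. At 7 dpi, 21.4% (14.3 to 29.9) of Ctrl and 17.1% (11.7 to 23.6) of ADWA11 astrocyte nuclei held at least 3 of the 6 precursor genes Pdgfra, Cspg4, Olig1, Olig2, Sox10 and Lhfpl3, against 3.27% to 5.61% in the other 4 libraries. The summed precursor marker list was 4541 and 3558 CPM there and between 679.7 and 1134 CPM elsewhere, still below the 6330.5 to 10749 CPM of precursor nuclei. Neuron RNA (Rbfox3, or at least 2 of Snap25, Slc17a7, Gad1 and Gad2) was in 23.4% (19.2 to 28.1) of Tgfbr2-cKO astrocyte nuclei at 7 dpi and 9.48% (7.48 to 11.8) at 21 dpi, and in 0.362% to 4.12% elsewhere. The neuron marker list summed to 14336 CPM in Tgfbr2-cKO at 7 dpi and to 7898 to 10133 CPM in the others. Myeloid nuclei of Tgfbr2-cKO at 7 dpi carried it at 14749 CPM, and those of Ctrl at 1181 CPM. In Ctrl astrocyte nuclei at 7 dpi 3 of its 10 genes were above the other filtered nuclei, though the sum was 10133 against 3118 CPM. The synaptic vesicle gene Syt1 stood at 1111 and 523 CPM in Tgfbr2-cKO astrocyte nuclei and from 0.564 to 46.1 CPM in the other 4 libraries. Pdgfra, Rbfox3 and Col1a2, a collagen gene of fibroblasts, all count towards the limit of the rule on genes of other cells. Their shares, and those of precursor and neuron RNA, are thus in part fixed by it and are a description. Where Col1a2 already filled the limit, a nucleus with Pdgfra was left out. A UMI of Pdgfra was in 23.1%, 20.6% and 2.72% of astrocyte nuclei at 7 dpi and in 0.892%, 1.81% and 6.14% at 21 dpi. A UMI of Col1a2 was in 33.3%, 36.5% and 7.63% of astrocyte nuclei at 7 dpi and in 76.5%, 65.9% and 8.95% at 21 dpi, and the fibroblast marker list summed to 445, 187 and 96.4 CPM and to 662, 495 and 152 CPM. The part of these RNAs in the results was not tested, but the leading values are given again without the nuclei that held precursor or neuron RNA. Such RNA may remain in the nuclei that were not called. Of the 99 gene ratios examined under other settings, 59 lay outside their counting interval in female nuclei alone, 62 in male nuclei alone and 63 in nuclei with none of the 6 genes of other cells. Pairs of libraries shared 21 to 61 barcodes, and 0.588% to 10.9% of astrocyte nuclei were called doublets and kept. At 7 dpi this share was 10.9% in Tgfbr2-cKO and 0.855% in Ctrl. Without the called nuclei 7 of the 99 ratios lay outside their counting interval. Between these 7 dpi libraries Vim was then −0.40 in place of −0.72 and Slc7a10 5.42 in place of 5.24.

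**Figure D2:**
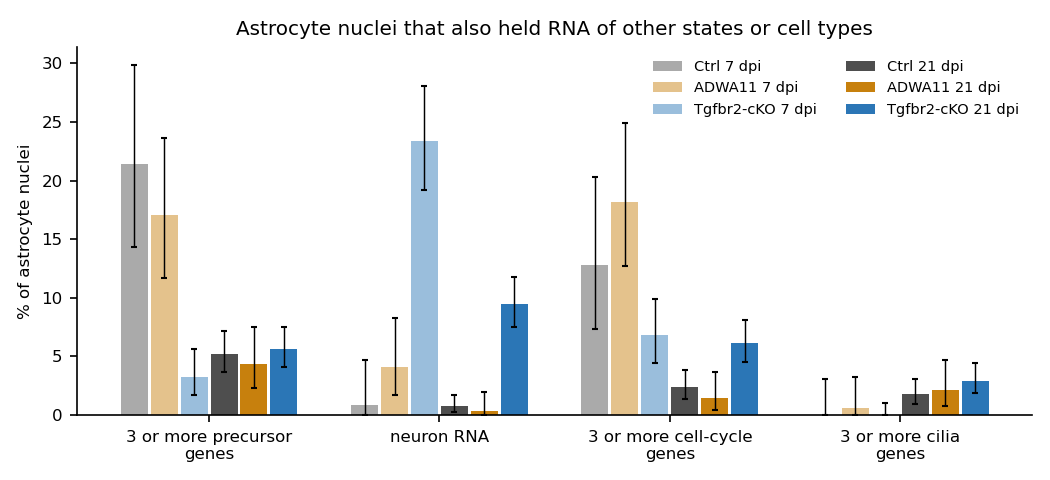
Percentage of astrocyte nuclei in each library that held at least 3 precursor genes, neuron RNA, at least 3 cell-cycle genes or at least 3 cilia genes (bars; lines are 95% exact intervals for counting; pale bars are 7 dpi and full bars 21 dpi). Precursor RNA stands out in Ctrl and ADWA11 at 7 dpi (21.4% and 17.1%), and neuron RNA in Tgfbr2-cKO (23.4% and 9.48%).

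Tgfbr2, the gene deleted in the Tgfbr2-cKO fibroblasts (mm10 chr9:116084293-116175360, minus strand), was low in astrocyte nuclei: 31.9 (21.5 to 45.6 in Ctrl), 31.7 and 38.6 CPM at 7 dpi, then 69.8, 73.8 and 57.1 CPM. In fibroblast nuclei it was 303, 235 and 199 CPM and then 214, 208 and 177 CPM. The libraries were made from 3′ ends and where on the gene their reads fell was not examined, so neither set of values is taken as a check of the deletion. The log2 ratio of Tgfbr2-cKO to Ctrl in astrocytes was 0.28 (−0.31 to 0.90) at 7 dpi. It was −0.29 (−0.50 to −0.078) at 21 dpi, and this value was 0.026 in male nuclei. The level in Ctrl was higher at 21 than at 7 dpi, by a log2 ratio of 1.13 (0.59 to 1.72). Myeloid nuclei of Ctrl held more Tgfbr2 than its astrocyte nuclei, at 451 CPM at 7 dpi and 342 CPM at 21 dpi. The myeloid marker list in Ctrl astrocyte nuclei went from 228 CPM at 7 dpi to 413 CPM at 21 dpi. The part of myeloid RNA in the Tgfbr2 values was not tested.

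Itgb8, the β8 chain of the integrin that ADWA11 binds (mm10 chr12:119158022-119238802, minus strand), stood at 264, 221 and 142 CPM in astrocyte nuclei at 7 dpi and 300.5, 254 and 255 CPM at 21 dpi. Myeloid nuclei of the same libraries had 9.26 to 22.3 CPM and fibroblast nuclei 119.9 to 209 CPM. After each nucleus was thinned to 2000 UMIs, Itgb8 was detected in 26.1% to 38.3% of astrocyte nuclei and in 1.73% to 2.81% of myeloid nuclei, so its RNA in astrocytes lay above the share in myeloid nuclei, which free RNA can give. Thinned detection was read in astrocyte and myeloid nuclei alone. The 142 CPM of Tgfbr2-cKO at 7 dpi lay within the range of fibroblast nuclei, so Itgb8 was not particular to astrocytes. The lowest value was that of Tgfbr2-cKO at 7 dpi (log2 ratio to Ctrl −0.90, −1.12 to −0.67). This ratio was −1.25 in female and −0.15 in male nuclei, −0.50 without the nuclei that held neuron RNA and −0.48 as a mean over nuclei. By contrast, the ratios of ADWA11 (−0.26 and −0.24) and of Tgfbr2-cKO at 21 dpi (−0.24) were small, and those of ADWA11 at 7 dpi and of Tgfbr2-cKO at 21 dpi turned to 0.26 and 0.021 in male nuclei. Itgav, its αv partner (mm10 chr2:83724397-83806916, plus strand), had 351, 156 and 134 CPM at 7 dpi, with Ctrl the highest of all 6 libraries, and 169.6, 114 and 180.1 CPM at 21 dpi. Its ratio to Ctrl at 7 dpi was −1.39 (−1.60 to −1.18) in Tgfbr2-cKO and −1.17 (−1.40 to −0.93) in ADWA11. Both use the same Ctrl library, in which the nuclei with precursor RNA were most frequent, and without such nuclei they were −1.12 and −1.08. In nuclei with none of the 6 genes of other cells they were −0.39 and −0.81. Myeloid nuclei had more Itgav and the same order, at 809, 638 and 411 CPM at 7 dpi, and in thinned nuclei of Ctrl it was detected in 61.7% of myeloid and 41.1% of astrocyte nuclei. The part of myeloid RNA in the Itgav values was not tested.

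Of the other genes that make, store or release TGFβ, Ltbp1, which ties latent TGFβ to the matrix, was lowest in ADWA11. It had 72.4, 21.0 and 72.0 CPM at 7 dpi and 77.6, 20.8 and 62.5 CPM at 21 dpi. Both ADWA11 libraries were thus the lowest of their time, with log2 ratios to Ctrl of −1.79 (−2.41 to −1.19) and −1.90 (−2.42 to −1.41), which were −0.97 and −0.99 in male nuclei. In nuclei with none of the 6 genes of other cells they were −2.53 and −0.88, and the first was −1.16 with at least 5 of the 8 astrocyte genes. The other filtered nuclei also had less Ltbp1 in ADWA11 at 21 dpi, 16.3 against 61.7 CPM in Ctrl. The part of their RNA was not tested. The ligand Tgfb2 was 154, 207 and 77.0 CPM and then 139.6, 166 and 108 CPM, and Tgfb1, the ligand of immune cells, was under 12 CPM in every library.

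In Ctrl, astrocytes at 21 dpi differed from those at 7 dpi by far higher levels of genes of the inflammatory response. Lcn2 (lipocalin 2, which binds iron carriers of bacteria) went from 1.06 CPM at 7 dpi to 296 CPM at 21 dpi, a log2 ratio of 8.12 (5.64 to 13.43) on 1 and 1414 UMIs. C3, the central complement protein, had 0 UMIs in Ctrl at 7 dpi and 1351 at 21 dpi (283 CPM), and Steap4, a metal reductase, had 0 and 622 (130.4 CPM). Set against a floor of 3 UMIs in the 7 dpi library, C3 was higher by a log2 ratio of at least 6.47 and Steap4 by at least 5.35. The lower limits of the 95% counting interval were 6.17 and 5.05. Chil1, a secreted chitinase-like protein, had 2 and 694 UMIs (log2 ratio 6.10, 4.24 to 9.14), and Cp (ceruloplasmin, a copper-carrying iron oxidase) stood at 171 and 1107 CPM (2.69, 2.47 to 2.93). After thinning to 2000 UMIs per nucleus, Lcn2 was detected in 0.935% and C3 in 0% of 107 Ctrl astrocyte nuclei at 7 dpi, the latter with an exact upper limit of 3.39%. At 21 dpi they were in 25.4% (22.1 to 29.0) and 30.9% (27.4 to 34.7) of 637 nuclei, while myeloid nuclei of that library had 3.35% for each. Nuclei of both mice of the pool had the higher level of Lcn2, with a log2 ratio of 6.68 in female nuclei and of at least 5.43 in male nuclei, which had 0 UMIs at 7 dpi, and without the nuclei that held precursor RNA the ratio was 7.58.

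The windows of 250 bases before the start sites of Lcn2, C3, Steap4 and Chil1, chosen after their values were seen, are shown because all 4 went from near 0 to at least 130.4 CPM (RefSeq, GRCm38.p6, written 5′ to 3′ on the strand of the gene; capitals mark matches to the motifs named below). They are chr2:32387740-32387989 (minus strand) for Lcn2, chr17:57228137-57228386 (minus) for C3, chr5:7960222-7960471 (plus) for Steap4 and chr1:134181906-134182155 (plus) for Chil1.
Lcn2: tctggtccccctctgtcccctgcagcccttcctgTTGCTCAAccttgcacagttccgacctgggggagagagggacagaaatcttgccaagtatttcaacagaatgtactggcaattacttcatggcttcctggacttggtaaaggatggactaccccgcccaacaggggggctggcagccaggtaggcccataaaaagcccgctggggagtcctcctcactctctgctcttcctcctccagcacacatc
C3: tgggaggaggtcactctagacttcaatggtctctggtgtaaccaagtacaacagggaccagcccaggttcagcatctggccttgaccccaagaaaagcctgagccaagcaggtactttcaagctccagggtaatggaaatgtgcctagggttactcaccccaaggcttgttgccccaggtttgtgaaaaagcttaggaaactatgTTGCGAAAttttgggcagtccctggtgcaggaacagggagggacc
Steap4: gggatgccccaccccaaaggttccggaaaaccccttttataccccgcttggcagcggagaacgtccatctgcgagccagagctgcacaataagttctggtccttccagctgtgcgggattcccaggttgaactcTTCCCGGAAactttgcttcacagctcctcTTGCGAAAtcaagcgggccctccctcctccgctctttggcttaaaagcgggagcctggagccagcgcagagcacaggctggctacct
Chil1: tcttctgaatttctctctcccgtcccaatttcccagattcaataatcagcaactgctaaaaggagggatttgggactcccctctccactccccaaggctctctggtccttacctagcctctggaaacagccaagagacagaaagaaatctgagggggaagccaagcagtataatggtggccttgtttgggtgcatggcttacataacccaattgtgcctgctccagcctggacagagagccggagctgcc

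The windows were searched on both strands for 3 motifs: TTCNNNGAA, read by STAT factors, TTGCNNAA, read by C/EBP factors, and TGANTCA, read by AP-1. The C/EBP letters were found as TTGCTCAA at −216 to −209 of Lcn2, as TTGCGAAA at −45 to −38 of C3 and as TTGCGAAA at −87 to −80 of Steap4, counted from the start site, and the STAT letters as TTCCCGGAA at −116 to −108 of Steap4. Chil1 held none of them. Of all 32851 windows of this length, 9.56% held the C/EBP, 7.02% the STAT and 6.75% the AP-1 letters, and a match describes the sequence and is not a measured binding site. By the gene models, the Lcn2 window lies inside the annotated gene (chr2:32384633-32388252) and the Steap4 window overlaps its first bases (chr5:7960457-7982213), while C3 (chr17:57203970-57228136) and Chil1 (chr1:134182176-134190181) start after theirs.

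Over the lists, 13.6% of 10465 compared genes (at least 20 UMIs in the pair of libraries and 10 CPM in either) were 2-fold or more higher in Ctrl at 21 than at 7 dpi and 6.64% 2-fold or more lower, with a median log2 ratio of 0.056. A gene near 0 in one library of a pair thus entered through the other, in which it is high, so the list counts here and below describe the genes that passed and not the whole lists. Of 27 compared genes of reactive astrocytes, 12 were 2-fold or more higher and 3 lower (median 0.83), and of 8 genes of an inflammatory-type reactive set 6 were higher and none lower (median 2.77). Markers of other cells moved with them in astrocyte nuclei: endothelial from 34.1 to 132 CPM, fibroblast from 445 to 662 and ependymal from 138 to 497. Their part was not tested. Serping1, the inhibitor of complement C1, went from 4.26 to 100.0 CPM and the chemokine Cxcl12 from 11.7 to 112 CPM. The metal-binding Mt1 went from 28.7 to 519 CPM (log2 ratio 4.17, 3.63 to 4.78), and vimentin (Vim) from 119 to 262 CPM (1.14, 0.86 to 1.43). All 15 compared genes of the interferon and MHC list were higher, beside 5612 of all 10465 compared genes. Of these 15, 9 were 2-fold or more higher (median 1.32), among them B2m, the light chain of MHC class I, at log2 1.32 (0.66 to 2.05). Myeloid nuclei carried the list at 719 and 1009.9 CPM, and the myeloid marker list in astrocyte nuclei moved with it, from 228 to 413 CPM; its part was not tested. Astrocyte identity genes were higher too, 16 of 28 by 2-fold or more and 1 lower (median 1.13): Glul, which makes glutamine, went from 49.0 to 178 CPM and Fam107a, an actin-binding protein, from 6.38 to 91.6 CPM. Gpc5, a heparan sulfate proteoglycan, went the other way, from 927 to 534 CPM (−0.80, −0.91 to −0.68). Without the nuclei with precursor RNA the medians were 0.95 for identity and 0.87 for reactive genes.

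Named division genes and genes shared with precursors were higher in Ctrl at the earlier time. Of 24 cell-cycle genes 14 were compared, 13 of which reached 10 CPM only at 7 dpi, so that a lower level at 21 dpi was in part set by the filter. Top2a, which untangles DNA in dividing cells, went from 54.3 to 3.77 CPM and Mki67 from 34.1 to 1.89 CPM. At least 3 cell-cycle genes were found in 12.8% (7.36 to 20.3) of Ctrl astrocyte nuclei at 7 dpi and 2.38% (1.36 to 3.83) at 21 dpi. Myeloid nuclei of the same libraries had 17.3% and 5.49%, and precursor nuclei 25.7% and 15.8%. At 7 dpi the cell-cycle list summed to 534 CPM in Ctrl astrocyte nuclei, 819 CPM in the other filtered nuclei and 1198 CPM in precursor nuclei. The part of their RNA was not tested. ADWA11 astrocyte nuclei were also higher at 7 dpi, with 18.2% (12.7 to 24.9) and 1.45% (0.396 to 3.67), and Tgfbr2-cKO was nearly level, with 6.81% (4.46 to 9.89) and 6.14% (4.53 to 8.11). Vcan (versican, a matrix proteoglycan) went from 1353 to 128 CPM (−3.40, −3.54 to −3.26), and Tnr (tenascin-R, a matrix protein of perineuronal nets) from 2767 to 867 CPM. Both are high in precursors (1596 and 1178 CPM of Vcan in the precursor nuclei of these libraries). The Vcan ratio was −3.42 without the nuclei that held 3 or more precursor genes, which were 25 of the 117 in Ctrl at 7 dpi, while Vcan was detected in 86.3% of the 117. The part of precursor RNA was not tested. The adhesion protein Cdh8 went from 213 to 12.4 CPM (−4.10, −4.55 to −3.68). Its ratio was −6.29 in male nuclei.

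**Figure D3:**
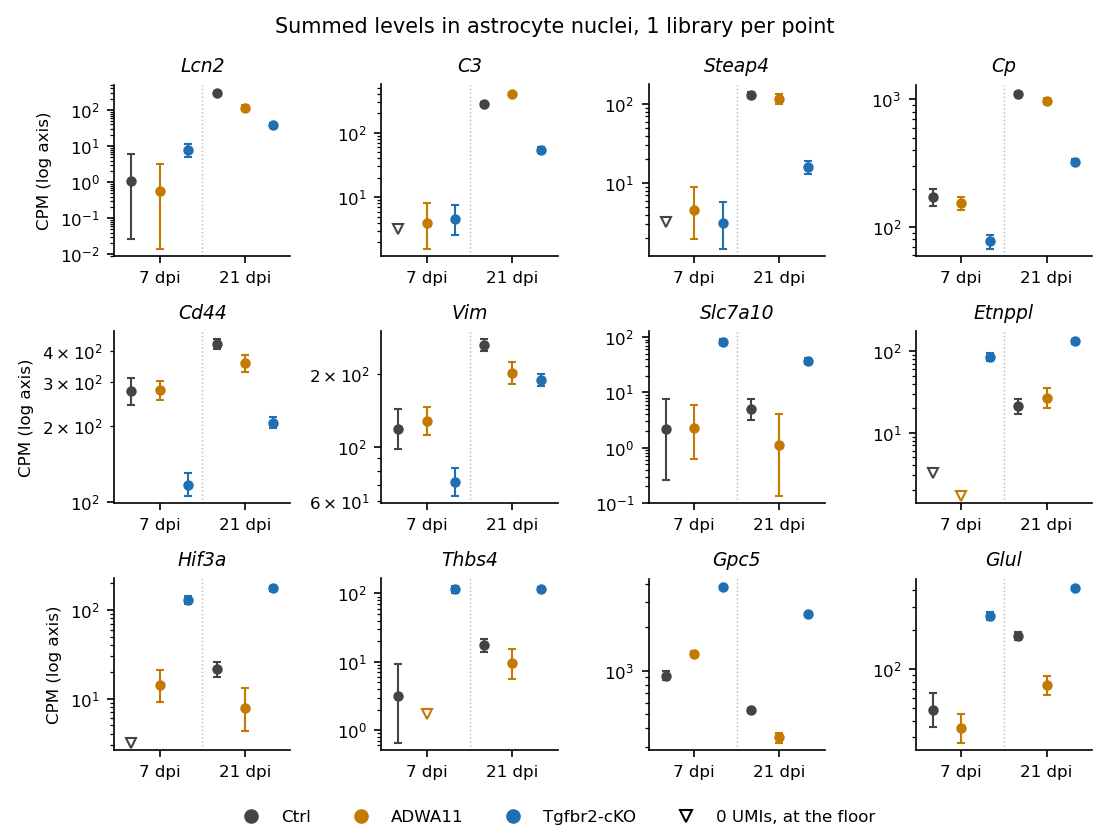
Summed level (CPM, log axis) of 12 genes in the astrocyte nuclei of each library at 7 dpi (left of the dotted line) and 21 dpi (right); lines are 95% exact intervals for counting, and open triangles stand at 3 UMIs where a library had 0. Lcn2, C3 and Steap4 are high at 21 dpi in Ctrl and ADWA11 and lower in Tgfbr2-cKO (Lcn2 296, 118 and 39.7 CPM), and Slc7a10, Etnppl, Hif3a and Thbs4 are highest in Tgfbr2-cKO at both times.

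At 7 dpi, Tgfbr2-cKO astrocytes had more RNA of genes of resting astrocytes than Ctrl astrocytes and less of 15 of 21 compared genes of the 30 on the reactive list and of named precursor genes. Of all 10294 compared genes 5480 were lower and 4814 higher. Neuron RNA was in 63.2% of all filtered nuclei of the Tgfbr2-cKO library and in 4.20% of those of Ctrl. The part of the cortex caught with the lesion in these ratios was not tested. Slc7a10, a transporter of serine and other small amino acids, stood at 2.13 CPM in Ctrl, 2.27 in ADWA11 and 80.4 in Tgfbr2-cKO (log2 ratio to Ctrl 5.24, 3.37 to 8.29, on 2 and 260 UMIs). Etnppl had 0 UMIs in Ctrl and 277 in Tgfbr2-cKO (85.6 CPM), at least 4.75 higher on the log2 scale by the floor of 3 UMIs (lower counting limit 4.44), and Hif3a, a hypoxia-inducible factor that restrains its relatives, 0 and 418 (129 CPM), at least 5.34 higher (lower limit 5.03). Grin2c, an NMDA receptor subunit of astrocytes, went from 2.13 to 114 CPM (5.74, 3.88 to 8.80) and Thbs4, a thrombospondin, from 3.19 to 115 CPM (5.17, 3.61 to 7.45). In male nuclei the Thbs4 ratio was 1.74 and that of Slc7a10, with 0 UMIs in Ctrl, at least 3.43. Each of these 5 genes had at most 3 UMIs in Ctrl, and in ADWA11 none of them was above the 14.2 CPM of Hif3a. Among the more abundant genes Gpc5 went from 927 to 3761 CPM (2.02, 1.92 to 2.12), Prex2, an activator of Rac, from 298 to 1578 CPM (2.40, 2.23 to 2.58) and Glul from 49.0 to 255 CPM (2.38, 1.95 to 2.84). The cation channel Trpm3 went from 101 to 1096 CPM (3.44, 3.15 to 3.75). In female nuclei its ratio was 5.04. In this comparison 12.6% of 10294 compared genes were 2-fold or more higher and 8.58% 2-fold or more lower, with a median of −0.047. Of the 30 identity genes 18 were 2-fold or more higher and none lower (median 1.33), and of 24 genes of glutamate, potassium and water transport 10 were higher and none lower (median 0.57). Without nuclei that held precursor RNA the identity median was 1.22, and without those that held neuron RNA it was 1.91. Slc7a10 was then 4.79 and 5.76, and Gpc5 2.20 and 2.51.

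The genes that were lower in Tgfbr2-cKO at 7 dpi were of several kinds. Sema3d, a secreted guidance protein, stood at 633 CPM in Ctrl and 65.8 in Tgfbr2-cKO (−3.27, −3.50 to −3.04), Hpgd, which breaks down prostaglandins, at 315 and 33.7 CPM (−3.22, −3.56 to −2.90; −4.08 in female and −1.36 in male nuclei, −2.18 in nuclei with none of the 6 genes of other cells), and the orphan receptor Gpr179 at 121 and 13.6 CPM (−3.16, −3.69 to −2.64). All were lower in the other filtered nuclei too: Sema3d at 114 and 30.2 CPM, Hpgd at 63.3 and 8.47 and Gpr179 at 2.42 and 0.257. The part of their RNA was not tested. In astrocyte nuclei Vcan stood at 1353 and 165 CPM (−3.03), Sox10, the factor that sets the oligodendrocyte line, at 127 and 16.1 CPM (−2.98) and Tnr at 2767 and 603 CPM (−2.20; −1.34 in male nuclei). For these precursor genes the nuclei that held precursor RNA moved with the comparison. Without them the ratios were −3.38, −3.01 and −2.32, but this leaves much of that RNA in place: the precursor gene Lhfpl3 was detected in 83.8% of all Ctrl and 36.0% of all Tgfbr2-cKO astrocyte nuclei, and its part in these ratios was not tested. Of 21 compared reactive genes 12 were 2-fold or more lower and 1 was higher (median −1.12): Stat3, a main switch of the reactive state, at 469 and 219 CPM (−1.10, −1.27 to −0.92), Cp at 171 and 77.0 CPM (−1.15; −0.46 in male nuclei) and Cd44, the receptor of hyaluronan, at 276 and 117 CPM (−1.23, −1.46 to −1.0). The sexes did not go together for Cd44 and Vim, whose ratios were 0.17 and 0.50 in male and −1.86 and −1.49 in female nuclei, and the median of the reactive list was −0.17 in male nuclei and −0.68 without the nuclei that held neuron RNA. It was −0.30 in nuclei with none of the 6 genes of other cells. Fibroblast and myeloid RNA in astrocyte nuclei moved with the list. The fibroblast markers summed to 445 CPM in Ctrl and 96.4 in Tgfbr2-cKO and the myeloid markers to 228 and 121 CPM. Their part was not tested. The inflammatory-type set went the other way, with 4 of 5 compared genes higher, 2 of them by 2-fold or more, and 1 lower by 2-fold or more (median 0.54). Of all 10294 compared genes 4814 were higher. Of the cell-cycle genes Top2a stood at 54.3 and 21.6 CPM and Mki67 at 34.1 and 15.5 CPM. At 7 dpi the interferon and MHC list was also higher in Tgfbr2-cKO, in 12 of 15 genes and 2-fold or more in 7 (median 0.99), beside the same 4814 of 10294 genes. Ifit1 stood at 3.19 and 24.4 CPM.

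At 21 dpi the identity genes were again higher in Tgfbr2-cKO, with a smaller median ratio. Hif3a stood at 21.4 CPM in Ctrl and 175 in Tgfbr2-cKO (3.03, 2.74 to 3.33), Slc7a10 at 5.03 and 37.1 CPM (2.88, 2.28 to 3.55), Thbs4 at 17.4 and 116 CPM (2.74, 2.41 to 3.08) and Etnppl at 21.2 and 132 CPM (2.63, 2.34 to 2.94). In female and male nuclei the Slc7a10 ratio was 1.93 and 3.72 and that of Hif3a 3.36 and 5.24. In nuclei with none of the 6 genes of other cells Slc7a10 was at 5.08 and Thbs4 at 4.12. Hif3a and Thbs4 are not on the identity list. Hif3a was also higher in the other filtered nuclei, at 3.92 CPM in Ctrl and 40.3 in Tgfbr2-cKO. Gpc5 went from 534 to 2448 CPM (2.20, 2.14 to 2.26) and Slco1c1, a carrier of thyroid hormone, to 159.5 CPM, above its Ctrl level by a log2 ratio of 2.41 (2.16 to 2.67). Fkbp5, which is switched on by glucocorticoids, went from 85.8 to 289.7 CPM (1.76, 1.60 to 1.91). Here 5.22% of 10506 compared genes were 2-fold or more higher and 4.19% lower (median −0.011), and of 29 identity genes 8 were 2-fold or more higher and none lower (median 0.31). Of 9 compared neuron markers 7 were 2-fold or more higher (median 1.54), and the oligodendrocyte markers summed to 177 CPM in Ctrl and 417 in Tgfbr2-cKO. Neuron RNA was in 2.39% and 19.9% of all filtered nuclei of these libraries. The part of these RNAs and of the cortex caught was not tested.

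Lcn2, C3, Steap4, Chil1 and Cp, described above for Ctrl, were lower in Tgfbr2-cKO at 21 dpi, while the inflammatory-type set as a whole was split. Of its 9 compared genes 4 were higher (Fkbp5, above, by 2-fold or more) and 5 lower (C3 and Serping1 by 2-fold or more), with a median of −0.071, and of the 15 genes of the interferon and MHC list 7 were higher and 8 lower, with the same median. Chil1 stood at 146 and 16.0 CPM (log2 ratio −3.18, −3.48 to −2.90), Steap4 at 130.4 and 15.9 CPM (−3.04, −3.33 to −2.75), Lcn2 at 296 and 39.7 CPM (−2.90, −3.09 to −2.72) and C3 at 283 and 53.7 CPM (−2.40, −2.56 to −2.24). Ptx3, a secreted pentraxin, stood at 62.1 and 8.68 CPM (−2.84), Timp1, an inhibitor of matrix proteases, at 21.6 and 2.80 CPM (−2.95), and Cp at 1107 and 326 CPM (−1.76, −1.83 to −1.69). All 7 were lower in nuclei of both sexes, by unequal amounts: the ratio in female and male nuclei was −3.34 and −2.45 for Lcn2, −4.43 and −2.35 for Chil1 and −2.28 and −0.84 for Cp. The other filtered nuclei held Timp1 at 21.1 CPM in Ctrl and 3.57 in Tgfbr2-cKO, close to the astrocyte values, and the part of their RNA was not tested. In thinned nuclei Lcn2 was detected in 5.49% (3.95 to 7.40) and C3 in 9.05% (7.07 to 11.4) of 729 Tgfbr2-cKO astrocytes, with 1.31% and 2.24% in myeloid nuclei as background. Of 25 compared reactive genes 11 were 2-fold or more lower and none higher (median −0.79), and the median was −0.74 without nuclei that held precursor RNA and −0.60 without those that held neuron RNA. Lcn2 was then −2.79 and −2.72. Fibroblast and endothelial RNA in astrocyte nuclei moved with these genes: the fibroblast marker list summed to 662 CPM in Ctrl and 152 in Tgfbr2-cKO and the endothelial list to 132 and 33.9 CPM, and their part was not tested. In nuclei with none of the 6 genes of other cells the reactive median was −0.57, and the ratio was −1.49 for Ptx3, −2.52 for Lcn2, −2.31 for C3 and −1.66 for Cp. Not all reactive genes took part: Osmr, a receptor subunit for oncostatin M, stood at 275 and 265 CPM and the complement gene C4b at 277 and 283 CPM. Gfap, a gene of the rule, stood at 741 and 862 CPM. Of 24 cell-cycle genes 5 were compared, 4 of which reached 10 CPM only in Tgfbr2-cKO, so that their higher level there was in part set by the filter. Top2a stood at 3.77 and 17.5 CPM.

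**Figure D4:**
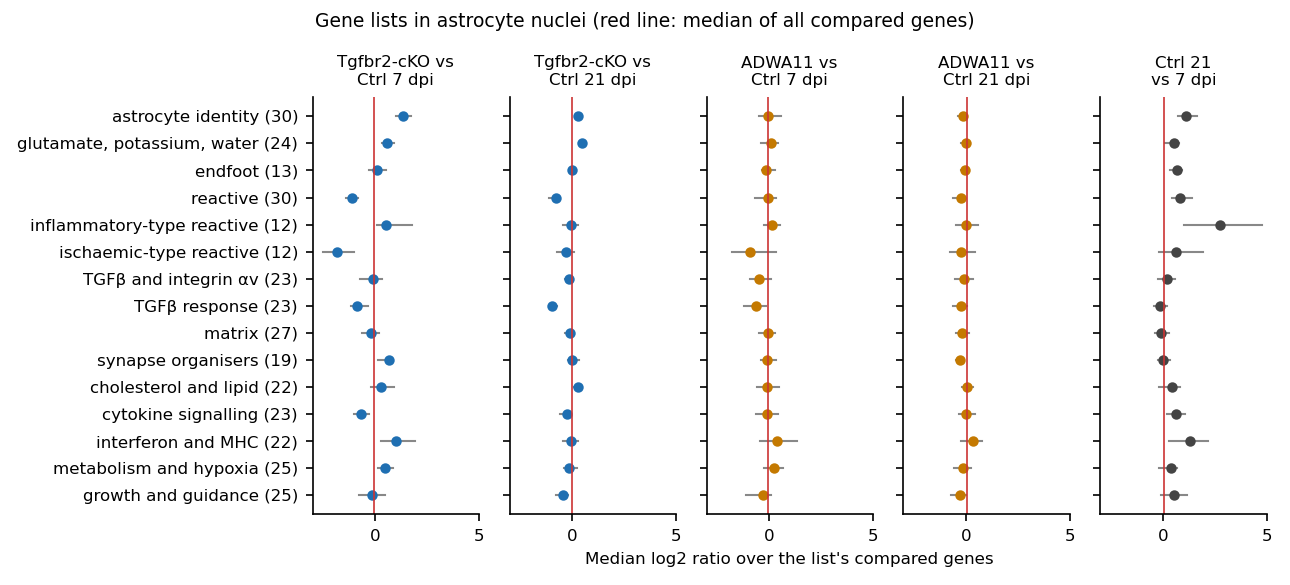
Median log2 ratio (points) of the compared genes of 15 lists in 5 comparisons of astrocyte nuclei; grey lines run between the medians of the genes' lower and upper counting limits, the red line is the median of all compared genes and the number of genes listed is in brackets. Identity and reactive genes lie on opposite sides in Tgfbr2-cKO against Ctrl (1.33 and −1.12 at 7 dpi, 0.31 and −0.79 at 21 dpi), and their medians in ADWA11 against Ctrl lie between −0.25 and −0.049.

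ADWA11 astrocytes were closer to Ctrl at both times. At 7 dpi 4.43% of 9796 compared genes were 2-fold or more higher and 4.20% lower (median −0.030). Of 25 identity genes 3 were 2-fold or more higher and 1 lower (median −0.049), and of 19 reactive genes 2 were higher and 3 lower (median −0.065). Osmr stood at 155 CPM in Ctrl and 59.5 in ADWA11 (−1.38, −1.76 to −1.01), and the glutamate receptor Grm3 at 691 and 251 CPM (−1.46, −1.64 to −1.28). Slc7a11, which exchanges cystine for glutamate, stood at 123 and 28.3 CPM (−2.12, −2.63 to −1.63), with −0.99 in female nuclei, −3.65 in male nuclei and −1.16 as a mean over nuclei, and Gfra1, a receptor of the growth factor GDNF, at 292 and 108 CPM (−1.44). Syt7, a calcium sensor of vesicle release, was higher, at 16.0 and 70.9 CPM (2.15, 1.37 to 3.03; 1.2 in male nuclei).

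At 21 dpi 1.82% of 10501 compared genes were 2-fold or more higher in ADWA11 than in Ctrl and 2.12% lower, the smallest shares of the 5 comparisons. This order depended on the filter on low genes, and the counts without it are given further below. Lcn2 stood at 118 CPM against 296 in Ctrl (−1.33, −1.55 to −1.12; −0.79 in female and −2.21 in male nuclei), while C3 was higher, at 392 against 283 CPM (0.47, 0.34 to 0.60), and Steap4 stood at 116 against 130.4 CPM (−0.17, −0.40 to 0.062; 0.069 in female and −0.60 in male nuclei). The inflammatory genes thus did not move together under ADWA11: thinned nuclei with C3 made up 43.4% (37.4 to 49.5) and those with Lcn2 13.2% (9.44 to 17.8) of 272 astrocytes. The C3 level of the other filtered nuclei was higher in ADWA11 as well, 64.1 against 25.7 CPM. Nupr1, a stress-response regulator, stood at 6.20 against 53.0 CPM (−3.10, −4.12 to −2.23), and Cntn4, a neural adhesion protein, at 18.6 against 121 CPM (−2.70, −3.25 to −2.20), though the latter was −0.72 in male nuclei. Cntn4 was lower in the other filtered nuclei as well, 6.37 against 78.4 CPM. Glul was lower at 74.9 against 178 CPM (−1.25, −1.53 to −0.99). Kcnj16, a potassium channel subunit, was higher at 36.1 against 11.7 CPM (1.62, 1.08 to 2.16), and Ftl1, the light chain of ferritin, at 507 against 203 CPM (1.32, 1.19 to 1.45), with 467 against 254 CPM in the other filtered nuclei. Of 27 identity genes 4 were 2-fold or more lower and none higher (median −0.12), and of 25 reactive genes 3 were lower and 1 higher (median −0.25). The myeloid marker list summed to 413 CPM in Ctrl and 660.4 CPM in ADWA11 astrocyte nuclei, and its part was not tested.

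Most genes that TGFβ is known to switch on were lower than in Ctrl, 16 of 18 in Tgfbr2-cKO and 14 of 18 in ADWA11 at each time. Of all compared genes 5480 of 10294 and 5372 of 10506 were lower in Tgfbr2-cKO at 7 and 21 dpi, and 5152 of 9796 and 4771 of 10501 in ADWA11. Pmepa1, a TGFβ-induced brake on the pathway, had 94.7, 27.8 and 54.7 CPM at 7 dpi and 48.6, 11.8 and 14.4 CPM at 21 dpi. Its log2 ratios to Ctrl were −1.77 (−2.30 to −1.25) and −2.04 (−2.76 to −1.39) in ADWA11 and −0.79 (−1.17 to −0.41) and −1.75 (−2.10 to −1.42) in Tgfbr2-cKO, below 0 in both sexes each time; the value for Tgfbr2-cKO at 7 dpi was −0.35 without nuclei that held precursor RNA. Smad7, the inhibitory SMAD, stood at 142, 66.3 and 42.0 CPM and then 77.6, 56.9 and 36.7 CPM. Its ratios were −1.09 (−1.46 to −0.72; −0.37 in female nuclei) and −0.45 (−0.78 to −0.13) in ADWA11, the latter 0.033 in male nuclei, and −1.75 (−2.11 to −1.40; −0.99 in male nuclei) and −1.08 (−1.31 to −0.85) in Tgfbr2-cKO. Both genes were thus highest in the Ctrl library of each time, which ADWA11 and Tgfbr2-cKO share as their reference. Over the TGFβ response list, 8 of 18 compared genes were 2-fold or more lower in Tgfbr2-cKO at 7 dpi (median −0.88) and 8 of 18 at 21 dpi (−0.94), with none higher, beside 8.58% and 4.19% of all compared genes. In ADWA11 7 of 18 were lower and 1 higher at 7 dpi (−0.63) and 5 of 18 lower and none higher at 21 dpi (−0.22), beside 4.20% and 2.12% of all compared genes lower. Id3, which BMP also switches on, was the gene that was 2-fold or more higher in ADWA11 at 7 dpi, at 37.2 CPM in Ctrl and 96.9 in ADWA11. The list holds matrix genes that fibroblasts make in bulk, and fibroblast RNA in astrocyte nuclei moved with it: Col1a1 stood at 176, 54.4 and 15.1 CPM and then 221, 188 and 12.8 CPM, and Fn1 (fibronectin) at 179.8, 85.6 and 18.2 CPM and then 94.6, 33.8 and 20.6 CPM. The part of that RNA was not tested. In nuclei with none of the 6 genes of other cells, Col1a2 included, of which there were 45, 60 and 228 at 7 dpi and 128, 74 and 472 at 21 dpi, Pmepa1 was at −1.06 and −2.35 in Tgfbr2-cKO and at −1.06 and −2.38 in ADWA11, and Fn1 at −2.03 and −1.54 in Tgfbr2-cKO.

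The balance of the states was also read within single nuclei, as the log2 ratio of UMIs of the reactive list to UMIs of the identity list, each plus 1, after thinning to 2000 UMIs. At 7 dpi the median of the 107 Ctrl nuclei was −1.0 (quartiles −1.58 to 0.0), that of the 166 ADWA11 nuclei −1.58 (−2.12 to −0.53) and that of the 353 Tgfbr2-cKO nuclei −3.04 (−4.0 to −1.72). At 21 dpi it was at −0.83 (−1.77 to 0.0, 637), −0.89 (−1.60 to −0.19, 272) and −2.0 (−2.95 to −0.93, 729). Tgfbr2-cKO nuclei were thus shifted towards identity RNA at both times, with medians of −3.12 and −2.89 in the female and male mouse at 7 dpi and −2.14 and −1.74 at 21 dpi, all below the Ctrl medians of −0.53, −1.22, −0.85 and −0.91. Nuclei with more reactive than identity RNA made up 17.8%, 9.64% and 4.25% at the earlier time and 22.1%, 15.1% and 9.47% at the later one. Both terms moved: a thinned nucleus held on average 4.10, 3.41 and 2.74 reactive UMIs at 7 dpi and 8.12, 6.92 and 4.80 at 21 dpi, and 8.75, 9.96 and 27.3 identity UMIs at 7 dpi and 13.9, 12.1 and 21.2 at 21 dpi. The quartile ranges of Ctrl and Tgfbr2-cKO did not overlap at 7 dpi and overlapped at 21 dpi. Neuron RNA was in 63.2% and 19.9% of all filtered nuclei of the Tgfbr2-cKO libraries and in 4.20% and 2.39% of those of Ctrl. The amount of cortex caught with the lesion may thus have differed between these libraries, and its part in the shift was not tested.

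**Figure D5:**
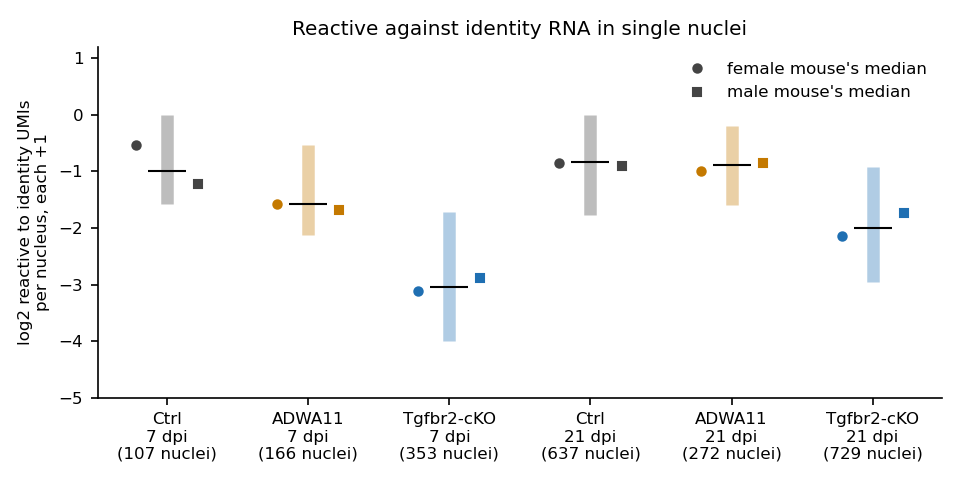
Log2 ratio of reactive to identity UMIs per thinned nucleus (vertical axis) in each library; the black line is the median, the pale bar spans the lower to the upper quartile, and points are the medians of the female (circle) and male (square) mouse. The Tgfbr2-cKO medians, −3.04 at 7 dpi and −2.0 at 21 dpi, lie below those of Ctrl and ADWA11.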

How the data were processed

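Nuclei of PT lesions were sequenced with the Chromium 3′ kit (v3.1). The authors deposited UMI counts per gene and barcode for each library, made on mm10 with Cell Ranger, 7.1.0 in the submitters' processing notes and 7.2.0 in the file headers, and the counts were used as deposited. Libraries held 64798965 to 140310354 UMIs. The study's own filter (lowest and highest 2.5% left out) would leave 61917 of 67360 barcodes and was an alternative. Here barcodes needed 1000 UMIs and under 5% mitochondrial UMIs. The members of the astrocyte set and the 29 gene lists were chosen with earlier results of these data known.

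UMIs of the astrocyte nuclei of a library were summed and divided by their total without mitochondrial genes (CPM). Each group was 1 library and no test between groups was made. Levels have exact Poisson, shares Clopper-Pearson and log2 ratios exact conditional binomial 95% intervals, which cover counting error only. A library with 0 UMIs was set to a floor of 3 counts for a bound. Genes were compared with at least 20 UMIs over both libraries and 10 CPM in either, and a gene was counted at a fold of 2. Doublets were scored by a Scrublet-type method and kept. Nuclei were thinned to 2000 UMIs for shares with a UMI and for the score, from which Sox9, on both lists, was left out.

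Genes were named by rule: up to 8 per direction and comparison by ratio, with at least 50 UMIs, at least 20 nuclei with a UMI in the higher library, no nucleus over 10% of the UMIs, a ratio of at least 0.5 of the same sign in female and male nuclei, and a level at least that of the other nuclei. Members of the lists were named as examples, and Tgfbr2, Itgb8 and Itgav always; some of the list examples were chosen after their values were seen. Scripts were tested on simulated data. Python 3.11.15, numpy 2.4.6, scipy 1.17.1, pandas 2.3.3, matplotlib 3.10.9 and R 4.3.3 were used, with edgeR 4.0.16 for the TMM alternative alone. Alternatives without nuclei that held precursor or neuron RNA, and without a limit on genes of other cells, were added after seeing the data.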

Additional observations from a re-analysis of the deposited data

Results flagged for a closer look

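Genes of the lists, without those of the rule and the markers of other cells, were searched for ratios to Ctrl on opposite sides at 7 and 21 dpi. A pair was kept if both counting intervals left out 0 and both ratios were at least 0.5 in size. Nuclei of both sexes also had to lie on one side at 7 dpi and on the other at 21 dpi. This gave 7 pairs, which are not all the changes of sign. The difference between the times was not tested, and each pair uses the Ctrl libraries that the other condition also uses. In Tgfbr2-cKO, the log2 ratio was 1.80 and then −3.65 for the chemokine Cxcl10, the first a bound (lower counting limit 1.43) since Ctrl had 0 UMIs at 7 dpi. The 7 dpi values of Cxcl10 in female and male nuclei, 0.54 and 0.63, were bounds too. The ratio was 1.54 (0.42 in female and 2.95 in male nuclei, 2.64 as a mean over nuclei) and −1.33 for Serping1. For Mt1 it was 2.33 and −0.63, the latter −0.14 in female nuclei. In ADWA11 it was 1.78 and −0.61 for Mt1, 1.09 (2.67 in female and 0.64 in male nuclei) and −0.69 for Mt2, a second metallothionein, and 0.50 and −0.62 for Gpc5. Lgals3, galectin 3, went the other way, with −1.11 and 1.26, which were −0.82 and 0.72 in nuclei with none of the 6 genes of other cells. The myeloid marker list in astrocyte nuclei stood at 228 CPM in Ctrl and 207 in ADWA11 at 7 dpi, and at 413 and 660.4 CPM at 21 dpi. The part of myeloid RNA in the Lgals3 ratios was not tested.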

How the results depend on the processing

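No paired analysis was possible because each group was 1 library. Female and male nuclei of a pool are not replicates of a condition. Of 84 alternative values of the shares 59 kept within their counting interval, 24 moved and 1 reversed; of 180 list medians 164 held and 16 moved; of 120 gene counts 101 stayed within 1.5 times; of 1089 gene ratios 824 held, 256 moved and 9 reversed, where a reversal was counted only if the interval of the reported ratio left out 0 (Steap4 in ADWA11 at 21 dpi, with an interval across 0, also turned, to 0.069 in female nuclei). The causes were not tested. Log2 share ratios of Tgfbr2-cKO to Ctrl at 7 dpi were 1.88 with none of the 6 genes of other cells, 1.51 after thinning, 2.20 without neuronal nuclei in the total, 0.76 in male nuclei, 0.82 without astrocyte nuclei with neuron RNA and 0.75 with no limit on genes of other cells. At 21 dpi they were 2.81 with none of the 6 genes, 1.24 without neuronal nuclei in the total, 0.79 in female and 1.41 in male nuclei, and 0.72 with no limit. For ADWA11 at 21 dpi they were −0.86 with none of the 6, −0.79 in female and −1.84 in male nuclei. Between the times, Ctrl had 0.90 with none of the 6, 2.33 after thinning, 2.33 in female and 1.46 in male nuclei. ADWA11 had 0.089, 1.10 and 1.27 with none of the 6, after thinning and in female nuclei, and reversed to −0.49 in male nuclei. Tgfbr2-cKO had 0.93 without neuronal nuclei in the total, 2.10 in male nuclei and 2.05 without nuclei with neuron RNA.

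In Tgfbr2-cKO at 7 dpi the identity median was 1.76 in male nuclei and 1.91 without nuclei with neuron RNA, and the reactive median was −0.30 with none of the 6, −0.17 in male nuclei, −0.68 without neuron RNA, −0.80 as a mean per nucleus and −0.72 without the filter on low genes. At 21 dpi identity was 0.63 with none of the 6 and 0.47 without neuron RNA. Reactive was −0.59 with 5 of 8 genes, −0.57 with none of the 6, −1.19 in female and −0.60 in male nuclei and −0.60 without neuron RNA, and the TGFβ response list was −0.57 with none of the 6. The same list was 0.48 in male nuclei of Ctrl at 21 against 7 dpi.

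Without the filter on low genes, 2278 genes were 2-fold or more higher and 5748 lower in the earlier Tgfbr2-cKO library (2090 and 3581 in the later one), 1253 and 3329 in ADWA11 (4334 and 1004 at the later time), and 2475 and 5995 in Ctrl at 21 against 7 dpi. In Tgfbr2-cKO, male nuclei gave 670 and 573 at 7 dpi, and 346 genes were higher at 21 dpi without neuron RNA. In ADWA11 at 21 dpi 323 and 361 were found with none of the 6, 375 and 352 in female nuclei and 429 lower in male nuclei. TMM scaling gave 125 higher and 296 lower there, against 191 and 223, and moved the median of all genes from 0.037 to −0.087, as it did from 0.12 to −0.054 in ADWA11 at 21 against 7 dpi. Ratios that reversed in male nuclei were Vim (0.50) and Cd44 (0.17) in Tgfbr2-cKO at 7 dpi, then Itgb8 (0.021) and Tgfbr2 (0.026) in its later library, and Itgb8 at 7 dpi (0.26) and Smad7 at 21 dpi (0.033) in ADWA11. With none of the 6 genes Itgb8 was 0.027 and Tgfbr2 0.22 in Tgfbr2-cKO and Itgb8 0.12 in ADWA11 at 21 dpi. The 117 astrocyte nuclei of Ctrl at 7 dpi limit every ratio against that library.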

Other observations

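Some genes of growth and guidance were higher at 21 than at 7 dpi in Ctrl. Sema3c, a secreted guidance protein, had 16.0 CPM at 7 dpi and 171 CPM at 21 dpi (log2 ratio 3.42, 2.69 to 4.27), and Fgf2, a growth factor of glia and vessels, 14.9 and 133 CPM (3.16, 2.40 to 4.04). The Sema3c ratio was 2.39 in female and 6.24 in male nuclei, 4.58 without the nuclei that held precursor RNA and 5.29 in nuclei with none of the 6 genes of other cells. That of Fgf2 was 4.61 in female and 2.05 in male nuclei. Of 21 compared genes of the list 7 were 2-fold or more higher and 1 lower at 21 dpi, with a median of 0.53, beside 13.6% and 6.64% of all compared genes. In Tgfbr2-cKO at 21 dpi 7 of 22 were 2-fold or more lower than in Ctrl and 2 higher (median −0.43), beside 4.19% and 5.22% of all compared genes: Igf1, insulin-like growth factor, at 8.81 against 52.6 CPM (−2.58, −2.99 to −2.18), Sema3c at 46.9 CPM (−1.87, −2.05 to −1.69) and Fgf2 at 48.3 CPM (−1.46, −1.65 to −1.27). Myeloid cells also make Igf1, and their marker list summed to 413 CPM in Ctrl and 275 CPM in Tgfbr2-cKO astrocyte nuclei at 21 dpi. The fibroblast marker list moved with the growth list too, at 662 and 152 CPM, and fibroblast nuclei of the Ctrl library carried the growth list at 5751 CPM, against 2378 CPM in its astrocyte nuclei. In nuclei with none of the 6 genes of other cells the ratios were −0.87 for Fgf2, −1.21 for Sema3c and −1.68 for Igf1, and the part of either RNA in the result was not tested. In ADWA11 at 21 dpi 4 of 21 were lower and 1 higher (median −0.29), beside 2.12% and 1.82% of all compared genes. The chemokine Cxcl12 stood at 112, 141 and 34.6 CPM at 21 dpi (Tgfbr2-cKO to Ctrl −1.69, −1.91 to −1.48), with a ratio of −2.66 in female and −0.71 in male nuclei.

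Nuclei with at least 3 cilia genes, as ependymal cells have, were rare. They made up 0% of 117 Ctrl, 0.588% of 170 ADWA11 and 0% of 367 Tgfbr2-cKO astrocyte nuclei at 7 dpi, with exact upper limits of 3.10%, 3.23% and 1.0%. At 21 dpi they made up 1.78% (0.925 to 3.09), 2.17% (0.802 to 4.67) and 2.94% (1.85 to 4.41).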
